A study of Mus musculus with 48 samples.

Results

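Striatal RNA of Q140 mice was compared with that of wild type (WT) mice in 16 of the 48 libraries of the series. Membership followed the genotype label alone, which gave 8 libraries of each genotype, each titled as a separate mouse sample, with 4 females and 4 males per genotype. Q140 mice model Huntington's disease through a long CAG repeat knocked into their own Htt gene. They are labelled as heterozygous, so that an unexpanded Htt allele remains. All are labelled as C57BL/6. Both groups have intact Msh3, the mismatch repair gene that was deleted in other mice of the series. Those mice are Msh3+/-, Msh3-/-, Q140 x Msh3+/- and Q140 x Msh3-/-, also 8 of each. Their libraries entered the filter on low counts, the scaling and the estimate of the spread. Q140 x Msh3+/- and Msh3+/- mice also serve as a second comparison below. The labelled age is 12 months, but the extraction text speaks of 6 months, and which of these applies is uncertain. The labels do not say whether WT and Q140 mice were littermates.

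The striatum is the input station of the basal ganglia and consists mainly of spiny projection neurons, GABAergic cells driven by glutamate from the cortex and tuned by dopamine. In Huntington's disease these neurons are the most affected cell type, and expanded CAG repeats lengthen further in them with age. Mutant huntingtin is known to disturb transcription, and lowered spiny neuron genes are the best-known part of that picture. The account below takes in all expressed genes, with most room for pathways outside that marker set.

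Library totals were 41621233 to 60899661 counts in WT and 45671068 to 53885892 counts in Q140 mice. Levels are in CPM, the counts scaled by library total and edgeR's TMM factors, and changes are log2 fold changes of Q140 minus WT with their standard error (SE). A gene was called when its Benjamini-Hochberg adjusted p in edgeR's quasi-likelihood test was below 0.05 over the 19714 genes tested. All 12 spiny projection neuron markers passed the filter on low counts, with a summed level of 12410.0 to 13890.0 CPM in WT against 7118 to 7990.0 CPM in Q140 mice. Of these markers 11 were called lower and 1 higher, beside 16% and 17% of all genes tested. Q140 replicates F3, F4 and M4 carried more blood RNA than any WT library, with blood markers summing to up to 10.1 CPM against at most 1.93 CPM. Without these libraries 5124 genes were called, a setting chosen after seeing the data. It also has fewer Q140 mice, so the effects of blood RNA and of group size on this count cannot be told apart. The first principal component over all 48 libraries held 12.3% of the variance. It separated every Q140 mouse (18.1 to 32.7) from every WT mouse (-19.5 to -10.4).

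Q140 striatum differed from WT in 6506 of the 19714 genes (33%), with 3358 higher (17%) and 3148 lower (16%). The changes were mostly small, with a median of 0.20 among genes called higher and -0.29 among genes called lower. Changes of at least 2-fold numbered 84 higher and 238 lower, and changes of at least 4-fold 14 higher and 33 lower, so that large falls outnumbered large rises. For 764 genes (3.88%) every Q140 mouse was above every WT mouse, and for 1005 genes (5.1%) every Q140 mouse was below. The split depended on the scaling and was 5773 higher and 2064 lower with library totals in place of TMM factors, which moved the median of all genes by 0.069. List medians below are therefore relative to the median of all genes. A change of scaling shifts all genes almost alike, so these relative medians could hardly move (at most 0.004), which is no check of the lists. Numbers of members called can move with the scaling, so both are given for the functional lists and families. With the 6 WT and 6 Q140 mice whose sample names share 1 prefix (Mh3Q), 5338 genes were called. The other 2 WT mice have the prefixes MQC and PQ and the other 2 Q140 mice Msh3Q, so these prefixes go with genotype. What the prefixes stand for is not given in the labels. The effects of prefix and of fewer mice on this count cannot be told apart.

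**Figure D1:**
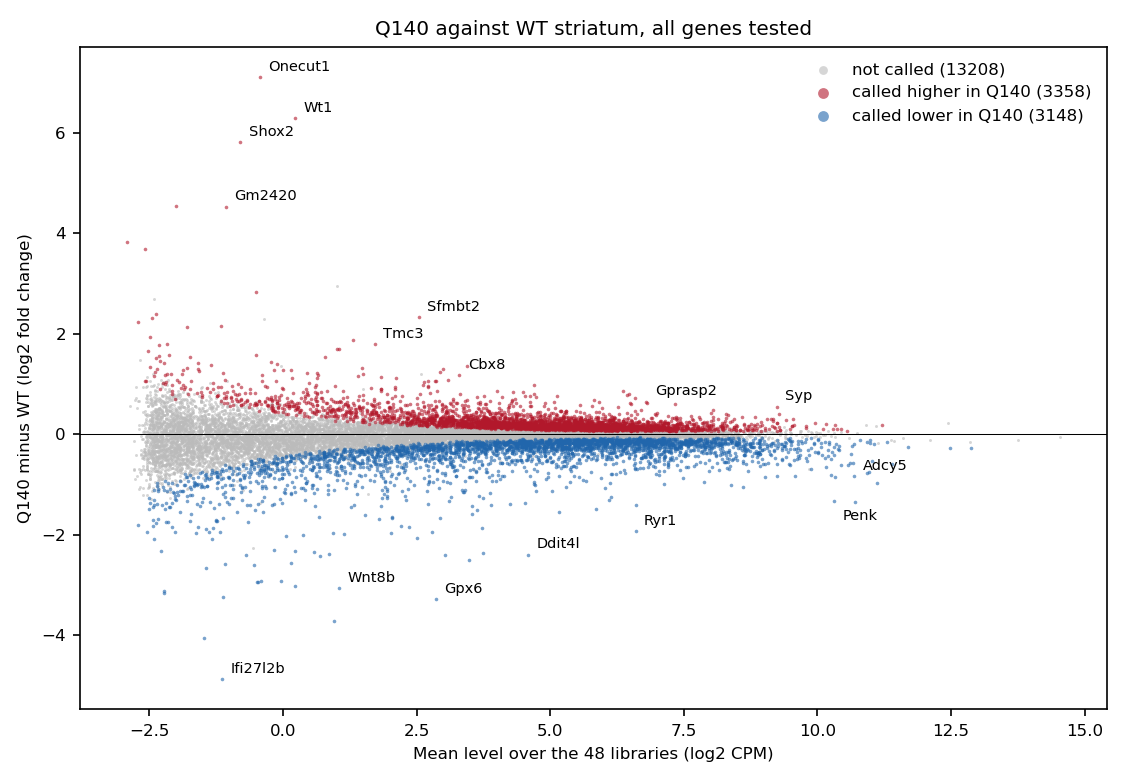
Log2 fold change of Q140 minus WT (y axis) against mean level over the 48 libraries in log2 CPM (x axis) for the 19714 genes tested, with genes called higher in red, lower in blue and not called in grey. The largest rises lie among genes of low level (Onecut1 at 7.11, Wt1 at 6.29), and among abundant genes the falls reach further (Penk at -1.33) than the rises (Syp at 0.55).

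Htt checks the labels only weakly, because gene-level counts carry no information on repeat length. It was at 217 to 237 CPM in WT mice (median 226) and 199.8 to 229 CPM in Q140 mice (median 212). The ranges overlapped, and the fall of 0.09 (SE 0.034) with adjusted p = 0.0314 was small. It was not called with library totals (-0.02, adjusted p = 0.681), nor when any one of Q140 F1, F2, M3, M4 or WT F1, F3, M4 was left out, with a largest adjusted p of 0.0757. Msh3 did not pass the test (adjusted p = 0.108), at 26.4 to 30.9 CPM in WT mice (median 29.3) and 28.5 to 32.5 CPM in Q140 mice (median 30.3).

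The largest folds were in transcription factors of embryonic patterning whose RNA was nearly missing from WT striatum. They were Onecut1, a cut-homeobox factor of liver and pancreas development, Wt1, a zinc finger factor of kidney and gonad development, Shox2, a homeobox factor of limb and heart development, and Hoxc4, a factor of the Hox family that sets position along the body axis. RNA of all 4 was present in every Q140 mouse. Promoters from RefSeq (build GRCm38.p6, 250 bases before to 50 after the start, 5′ to 3′ on the gene's strand) are shown for the genes of this set that the table holds, to let their CG content be compared. Gpx6, the largest fall among genes of at least 1 in mean log2 CPM, is shown beside them. Capitals mark CG dinucleotides.
Onecut1, chr9:74861671-74861970, plus strand: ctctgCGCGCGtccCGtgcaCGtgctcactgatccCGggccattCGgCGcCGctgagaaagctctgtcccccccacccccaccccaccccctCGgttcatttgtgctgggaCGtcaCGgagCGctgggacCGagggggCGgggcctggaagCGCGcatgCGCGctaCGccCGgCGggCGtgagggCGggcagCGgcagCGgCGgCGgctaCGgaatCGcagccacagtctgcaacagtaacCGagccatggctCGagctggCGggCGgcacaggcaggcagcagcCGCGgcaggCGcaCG
Shox2, chr3:66981722-66982021, minus strand: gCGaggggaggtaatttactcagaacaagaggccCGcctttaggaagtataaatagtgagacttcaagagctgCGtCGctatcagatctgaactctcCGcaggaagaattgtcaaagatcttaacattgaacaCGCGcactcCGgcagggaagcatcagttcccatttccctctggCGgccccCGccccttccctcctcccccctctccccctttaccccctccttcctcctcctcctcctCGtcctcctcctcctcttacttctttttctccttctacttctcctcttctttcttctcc
Hoxc4, chr15:103034145-103034444, plus strand: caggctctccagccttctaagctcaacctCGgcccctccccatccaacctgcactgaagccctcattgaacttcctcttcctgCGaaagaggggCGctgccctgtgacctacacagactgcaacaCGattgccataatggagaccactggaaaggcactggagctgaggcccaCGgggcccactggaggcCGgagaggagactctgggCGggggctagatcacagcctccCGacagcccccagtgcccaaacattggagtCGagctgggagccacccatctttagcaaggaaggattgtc
Gpx6, chr13:21311953-21312252, plus strand: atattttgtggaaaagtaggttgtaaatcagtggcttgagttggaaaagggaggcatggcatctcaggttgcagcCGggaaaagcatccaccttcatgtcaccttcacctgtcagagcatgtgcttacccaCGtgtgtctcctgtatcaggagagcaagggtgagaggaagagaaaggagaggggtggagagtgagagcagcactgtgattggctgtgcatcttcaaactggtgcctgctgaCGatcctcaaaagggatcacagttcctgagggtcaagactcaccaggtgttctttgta
The Onecut1 promoter held 38 CG dinucleotides, more than 91.3% of the 12477 promoters matched to tested genes, whose median was 19. The Shox2 promoter held 11, the Hoxc4 promoter 9 and the Gpx6 promoter 3. Among the promoters shown of genes that appeared, only that of Onecut1 was above this median. Wt1 had no entry among the promoters, and the Hoxc4 window lies inside the annotated gene (103018934 to 103036852). Which start the RNA came from was not tested.

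Onecut1 (ENSMUSG00000043013; GRCm38 chromosome 9, 74861921 to 74891781, plus strand) was at 0 to 0.0612 CPM in WT mice (median 0.0199) and 1.12 to 5.17 CPM in Q140 mice (median 2.75). Over the 8 libraries of each genotype these were 7 and 1180 counts, a 166.6-fold ratio per total count with an exact 95% counting interval of 80.6 to 415. The lowest Q140 mouse was far above the highest WT mouse (log2 fold change 7.11, SE 0.51, adjusted p = 3.93e-16). Such intervals cover counting error only, not the spread between mice. Without WT replicate F3, which held 3 of the 7 WT counts, the ratio was 253.5-fold.

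Wt1 (ENSMUSG00000016458; chromosome 2, 105126529 to 105173616, plus strand) was at 0.0204 to 0.143 CPM in WT mice (median 0.0482) and 1.31 to 8.75 CPM in Q140 mice (median 4.48). It had counts in all 8 WT mice, so its RNA there was low rather than missing. The pooled counts were 21 and 1861, an 87.6-fold ratio (57.1 to 142), and the groups did not overlap (log2 fold change 6.29, SE 0.54, adjusted p = 7.59e-13). Shox2 (ENSMUSG00000027833; chromosome 3, 66971727 to 66981771, minus strand) was at 0 to 0.0956 CPM in WT mice (median 0.0420) and 0.635 to 6.04 CPM in Q140 mice (median 2.37). Its pooled counts were 16 and 1066, a 65.8-fold ratio (40.4 to 116), again without overlap (log2 fold change 5.82, SE 0.479, adjusted p = 3.08e-14).

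Hoxc4 had enough counts in too few libraries to pass the filter before the test. It is given by its counts, 7 in WT and 303 in Q140 mice (42.8-fold, 20.5 to 107). Q140 mice were at 0.0747 to 2.62 CPM (median 0.525). In WT, 2 mice had counts, and the higher of them (0.122 CPM) was above the lowest Q140 mouse. The other Hox genes were then looked at because of these values. Hoxc5 had 0 counts in WT and 142 in Q140 mice, in 7 of 8 animals, which is at least 46.8-fold higher against a floor of 3 counts over the group. Hoxc6 had 0 and 45 counts, also in 7 of 8 Q140 mice and at least 14.8-fold higher against that floor. Summed by cluster, Hoxc genes went from 12 to 498 counts, Hoxa genes from 71 to 133, Hoxb genes from 10 to 46 and Hoxd genes from 37 to 56. The annotated Hoxc5 and Hoxc6 models overlap on chromosome 15 and Hoxc4 lies next to them, so the division of reads among them is uncertain. Leaving out each library in turn, a step added after these values were seen, moved several ratios by over 1.5 times. Without Q140 replicate F3, Hoxc5 had 78 counts in Q140 mice, at least 29.1-fold higher, and the Hoxc cluster had 293, a 27.3-fold ratio against 41.0-fold over all libraries. Without WT replicate F3, Hoxc4 had 1 count in WT mice and a 260.4-fold ratio, and the Hoxc cluster 6 counts and a 71.3-fold ratio. Without WT replicate M4 the Hoxb genes had 4 counts in WT mice, which took their ratio from 4.55-fold to 9.72-fold.

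These genes varied widely among Q140 mice. Replicate F3 was the highest and M2 the lowest Q140 mouse for Onecut1, Wt1, Shox2 and Hoxc4, and for each of the 4 genes every Q140 female was above every Q140 male. Without F3, F4 and M4 the log2 fold changes were 6.95 for Onecut1, 6.04 for Wt1 and 5.69 for Shox2. The sex difference of the Q140 effect did not pass the test on the log2 scale, with unadjusted interaction p of 0.956, 0.321 and 0.718 for Onecut1, Wt1 and Shox2. Of 174 homeobox and other patterning factors, 57 passed the filter on low counts and were tested. Of the 57, 7 rose and 7 fell (9 and 3 with library totals). These shares, 12.3% each way, were below those of all genes tested (17% higher, 16% lower). Genes of low level are called less often, with 3.09% higher and 6.04% lower in the lowest of 5 equal classes by mean level. The factors were not matched for level, so no conclusion is drawn on patterning factors as a class. Lmx1b, a homeobox factor of dopamine neuron development named after its values were seen, rose by 1.94 (adjusted p = 0.00598) from a mean of 0.1 to 0.412 CPM. Markers of cortex, thalamus and septum were counted as well. Of 7 thalamic and septal markers 0 rose and 3 fell (summed level 65.7 to 84.2 CPM in WT, 57 to 74.9 CPM in Q140). Of 9 cortical excitatory markers 2 rose (22.2%) and 1 fell (11.1%), at 47.5 to 64.1 against 46.9 to 60.8 CPM. None of either list was at 0 in all 16 libraries. These short lists leave out other brain regions, and the source of the RNA of the genes that appeared was not tested.

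**Figure D2:**
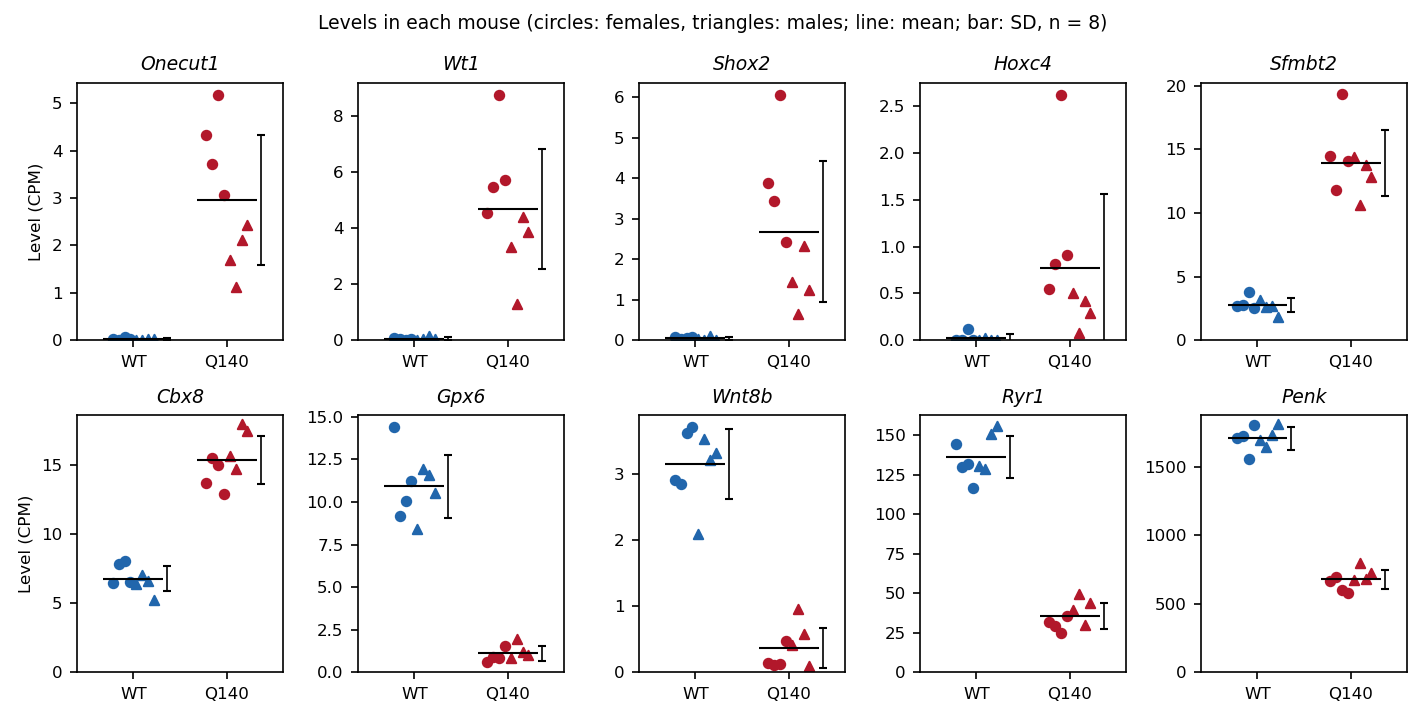
Level in CPM (y axes from 0) of 10 genes in 8 WT and 8 Q140 mice, with circles for females, triangles for males, a line at the mean and a bar for the SD. Onecut1, Wt1, Shox2 and Hoxc4 lie near 0 in WT mice and are highest in Q140 replicate F3, at 5.17, 8.75, 6.04 and 2.62 CPM, while Gpx6, Wnt8b, Ryr1 and Penk have no overlap between genotypes.

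Polycomb and Trithorax proteins are chromatin regulators that keep developmental genes such as the Hox clusters off or on. Of 45 such genes tested 14 rose and 6 fell (22 and 3 with library totals), with a relative median of 0.07. Sfmbt2, an imprinted Polycomb-group gene, was at 1.81 to 3.77 CPM in WT mice (median 2.68) and 10.6 to 19.3 CPM in Q140 mice (median 13.9), so that every Q140 mouse was above every WT mouse (log2 fold change 2.34, SE 0.139, adjusted p = 1.09e-18). Cbx8, a chromodomain subunit of Polycomb repressive complex 1, was at 5.24 to 8.07 CPM in WT mice (median 6.56) and 12.9 to 18 CPM in Q140 mice (median 15.3), a rise of 1.18 (SE 0.0928) without overlap. Chromatin remodelling complexes had members called in both directions, 19 higher and 11 lower of 56 (28 and 6 with library totals).

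Above a mean level of 1 log2 CPM, the largest falls were in genes of varied function. Gpx6 (ENSMUSG00000004341), of the glutathione peroxidase family, was at 8.41 to 14.4 CPM in WT mice (median 10.9) and 0.607 to 1.96 CPM in Q140 mice (median 0.978), a fall of 3.27 (SE 0.209) with adjusted p = 1.07e-16. Wnt8b, a secreted Wnt ligand, was at 2.09 to 3.70 CPM in WT mice (median 3.25) and 0.104 to 0.952 CPM in Q140 mice (median 0.281), a fall of 3.06 (SE 0.38). Ddit4l, which encodes an inhibitor of mTOR signalling, was at 33.1 to 40.8 CPM in WT mice (median 37) and 5.28 to 9.30 CPM in Q140 mice (median 6.85), a fall of 2.39 (SE 0.114). None of these genes had overlapping groups. Ryr1, a calcium release channel of the endoplasmic reticulum, was at 116 to 156 CPM in WT mice (median 131) and 24.6 to 49.4 CPM in Q140 mice (median 33.9), a fall of 1.93 (SE 0.128) with adjusted p = 4.97e-16. The other 8 of the 12 largest falls were Sec14l3, Abhd11os, Slc4a11, Gm9754, Odf4, Phex, Vwa7 and Cpne9, with log2 fold changes from -2.50 to -1.85.

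The largest rises in that range of levels were smaller. Besides Sfmbt2 and Cbx8 they included the desmosome genes Dsp and Dsg2, whose proteins form adhesive junctions best known from epithelia and heart. Dsp was at 0.958 to 2.45 CPM in WT mice (median 1.23) and 3.56 to 7.85 CPM in Q140 mice (median 5.32), a rise of 1.88 (SE 0.206) without overlap. Dsg2 rose by 1.33 (SE 0.242), from a median of 1.23 to 4.01 CPM. Tmc3, a transmembrane channel-like gene, rose by 1.80 (SE 0.142), Kazald1 by 1.71 (SE 0.135) and Pcdh20, a protocadherin, by 1.36 (SE 0.119). Rprm, a cell cycle arrest gene, Tpx2, a spindle assembly factor, and Ipcef1 rose by 1.16 to 1.30. Nrn1, which encodes neuritin, was at 0.633 to 1.63 CPM in WT mice (median 1.21) and 1.42 to 10.8 CPM in Q140 mice (median 3.21). Its groups overlapped and replicate F3 was far above the others, with a log2 fold change of 1.70 (SE 0.476, adjusted p = 0.00462).

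Abundant genes, those whose log2 CPM averaged at least 8, rose by less than they fell. Syp, which encodes the synaptic vesicle protein synaptophysin, was at 496 to 547 CPM in WT mice (median 528) and 675 to 829 CPM in Q140 mice (median 765), a rise of 0.55 (SE 0.0423) without overlap. Ahi1, whose protein binds huntingtin-associated protein 1, was at 215 to 251 CPM in WT mice (median 239) and 246 to 372 CPM in Q140 mice (median 336), a rise of 0.48 (SE 0.0618), and its ranges met at Q140 replicate M2. Faim2, Nell2, Gprasp1 and Stum rose by 0.39 to 0.43. The 6 largest falls there, Scn4b, Penk, Cnr1, Adora2a, Pde10a and Arpp21, all belong to genes long linked with spiny projection neurons. Penk, the enkephalin precursor, was at 1558 to 1816 CPM in WT mice (median 1717) and 582 to 801 CPM in Q140 mice (median 676).

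The smallest p-values added genes seldom listed as markers. Bcr, a GTPase-activating protein gene, fell by 0.57 (SE 0.0293) and Plk5, a polo-like kinase gene, fell by 1.36 (SE 0.0716), without overlap for either. On the rising side were Fat1, an atypical cadherin (0.62, SE 0.0375), Gprasp2 (0.65, SE 0.0403), Fam126a (0.83, SE 0.0566), Cd200, a ligand that restrains microglia (0.57, SE 0.0396), Armcx4 (0.44, SE 0.0321) and Sfmbt2.

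For groups of genes, 92 functional lists and gene families were counted. Of these, 66 are described by the rule of at least 10 tested members and either a share called in 1 direction at least 1.5 times that of all genes or a median at least 0.1 from that of all genes. For 17 of the 66 the majority direction changed with the scaling, among them glutamate, GABA and glycine receptors, Notch signalling and nuclear hormone receptors, and no direction is given for them. These are bulk samples, in which fewer cells of a type and less RNA per cell cannot be told apart. List members were not matched for level. In the highest and next highest of 5 equal classes by mean level, 23.9% and 27.5% of genes rose and 28% and 17.4% fell. Rises of lysosome (28.6%), ATG (29%), heat shock and J-domain (28.2%), translation factor (27.9%) and Zfp genes (26.2%) were near those shares of rises.

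Calcium/calmodulin kinases and calcineurin, and RGS proteins, were called lower more often than higher. Of 23 calcium/calmodulin kinase and calcineurin genes 16 fell and 3 rose (13 and 3 with library totals), with a relative median of -0.165. Ppp3ca, a catalytic subunit of calcineurin, was at 2187 to 2484 CPM in WT mice (median 2401) and 1585 to 1702 CPM in Q140 mice (median 1644), a fall of 0.54 (SE 0.0382) without overlap. Camk4 fell by 0.52 (SE 0.046), and Camk2n1, an inhibitor of CaMKII, fell by 0.50 (SE 0.0401). RGS proteins, which speed the switching-off of G proteins, fell in 12 of 20 cases and rose in 2 (10 and 2 with library totals). Rgs14 was at 76.6 to 89 CPM in WT mice (median 82.5) and 34.2 to 48.6 CPM in Q140 mice (median 38.8), a fall of 1.06 (SE 0.0622) without overlap. Rgs4 fell by 0.84 (SE 0.0677) and Rgs9, a marker of spiny neurons, fell by 0.83 (SE 0.0495).

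Lipid second messenger genes were also called lower more often than higher. Of 55 phosphoinositide and diacylglycerol signalling genes 26 fell and 10 rose (19 and 15 with library totals). Itpr1, the inositol trisphosphate receptor that releases calcium from the endoplasmic reticulum, was at 1644 to 1929 CPM in WT mice (median 1797) and 1156 to 1230.0 CPM in Q140 mice (median 1212), a fall of 0.56 (SE 0.0409) without overlap. Itpka, a kinase of inositol trisphosphate, fell by 0.62 (SE 0.0532) and Prkcb, a protein kinase C, fell by 0.50 (SE 0.0381). The diacylglycerol kinases Dgka and Dgkg instead rose by 0.45 (SE 0.0721) and 0.42 (SE 0.0547). Among 20 cyclic nucleotide phosphodiesterases 7 fell and 3 rose (7 and 3 with library totals). Pde1b fell by 0.60 (SE 0.0431) and Pde7b fell by 0.47 (SE 0.0451), while Pde4d was at 35.3 to 42 CPM in WT mice (median 38.2) and 46.8 to 57.1 CPM in Q140 mice (median 54.9), a rise of 0.47 (SE 0.0509).

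Receptors for amines, acetylcholine and opioids and potassium channels were also called lower more often than higher. Of 47 amine, acetylcholine and opioid receptors 19 fell and 5 rose (18 and 6 with library totals), with a relative median of -0.175. The nicotinic subunit Chrna4 was at 17.8 to 21.3 CPM in WT mice (median 19.4) and 5.47 to 9.04 CPM in Q140 mice (median 7.33), a fall of 1.42 (SE 0.0862) with adjusted p = 1.09e-18. The serotonin receptor Htr2c went the other way, at 42.6 to 76.6 CPM in WT mice (median 63.7) and 107 to 124 CPM in Q140 mice (median 116), a rise of 0.87 (SE 0.0819) with adjusted p = 1.21e-11. Neither gene's groups overlapped. The nicotinic subunit Chrnb4 rose by 1.18 (SE 0.18) and Oprl1, the nociceptin receptor, by 0.36 (SE 0.0599). Of 78 potassium channel genes 24 fell and 5 rose (19 and 7 with library totals). Kcnh4 fell by 0.97 (SE 0.0752), and the accessory subunits Kcnab1 and Kcnip2 fell by 0.52 (SE 0.0428) and 0.51 (SE 0.0506).

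Pathways of secreted developmental signals likewise had more falls than rises. TGF beta, activin and BMP ligands act through SMAD proteins, and follistatin (Fst) is the secreted antagonist of activin. Of 57 genes of this pathway 25 fell and 5 rose (18 and 8 with library totals), with a relative median of -0.126. Fst was at 3.69 to 7.41 CPM in WT mice (median 5.26) and 0.936 to 2.93 CPM in Q140 mice (median 1.45), a fall of 1.82 (SE 0.148) without overlap. Inhba, the activin A subunit, fell by 0.95 (SE 0.0855) and the ligand Bmp2 fell by 0.86 (SE 0.0932). Id4, a helix-loop-helix inhibitor responsive to BMP, was at 143 to 167 CPM in WT mice (median 149.9) and 81.5 to 102 CPM in Q140 mice (median 93.2), a fall of 0.73 (SE 0.0478). The receptor gene Acvr2a rose by 0.32 (SE 0.0601), so ligand, antagonist and receptor did not share a direction.

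Wnt proteins signal through frizzled receptors and beta-catenin. Of 60 pathway genes 21 fell and 3 rose (15 and 9 with library totals), with a relative median of -0.158. The ligand Wnt4 was at 1.58 to 3.08 CPM in WT mice (median 2.06) and 0.303 to 1.05 CPM in Q140 mice (median 0.719), a fall of 1.66 (SE 0.182) without overlap. Rspo1, a secreted enhancer of Wnt signalling, fell by 1.33 (SE 0.109), and Tcf7, a nuclear effector, fell by 0.83 (SE 0.0514). Retinoid genes, which make and sense retinoic acid, fell in 9 of 23 cases and rose in 4 (7 and 5 with library totals). The retinol carrier Rbp4 fell by 0.82 (SE 0.0675) and the receptor Rxrg fell by 0.59 (SE 0.0908), while the retinol dehydrogenase Rdh12 rose by 0.79 (SE 0.113). In the insulin, IGF and mTOR list 12 of 39 fell and 6 rose (12 and 11 with library totals), and Deptor, an mTOR inhibitor, fell by 0.63 (SE 0.062).

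Clock genes drive the daily cycle of transcription. Of 21 tested 11 fell and 2 rose (10 and 3 with library totals), with a relative median of -0.252. Dbp, a clock output factor, was at 157 to 215 CPM in WT mice (median 191) and 114 to 129 CPM in Q140 mice (median 119), a fall of 0.60 (SE 0.0609). Npas2, a forebrain partner of BMAL1, was at 92.8 to 107 CPM in WT mice (median 98) and 52.6 to 66.4 CPM in Q140 mice (median 61), a fall of 0.72 (SE 0.0482). Neither overlapped between genotypes. Nr1d1, the REV-ERB alpha repressor, fell by 0.45 (SE 0.0618), and Arntl2 rose by 0.46 (SE 0.0898).

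Lists of matrix, complement and interferon genes had more falls than rises. Of 64 extracellular matrix and perineuronal net genes 26 fell and 6 rose (13 and 7 with library totals). Adamts2, a procollagen peptidase, was at 9.91 to 15 CPM in WT mice (median 12.4) and 4.21 to 6.12 CPM in Q140 mice (median 5.98), a fall of 1.15 (SE 0.112) without overlap. Thbs1, the matrix glycoprotein thrombospondin, rose by 0.90 (SE 0.139). Of 31 complement genes 14 fell and 3 rose (8 and 3 with library totals), with the lowest relative median of the lists plotted, -0.259. Cd59a, which shields cells from complement, was at 11.5 to 29.1 CPM in WT mice (median 20.2) and 6.02 to 16.1 CPM in Q140 mice (median 7.36), with some overlap and a fall of 1.26 (SE 0.197). Interferon-induced and MHC class I genes fell in 17 of 69 cases and rose in 4 (8 and 6 with library totals).

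Markers of several other cell types also fell. Of 12 endothelial and mural markers 10 fell (summed level 385 to 477 CPM in WT, 328 to 359 CPM in Q140). Of 12 microglia markers 7 fell (503 to 603 against 423 to 489.5 CPM), and of 12 astrocyte markers 6 fell (6337 to 6867 against 5463 to 5946 CPM). Of 12 oligodendrocyte markers 6 fell (5776 to 6929 against 5169 to 6164 CPM). With library totals 8, 4, 3 and 6 of these lists' markers fell, in the same order, and 1 astrocyte and 1 oligodendrocyte marker rose. Of 8 oligodendrocyte precursor markers 2 rose and 1 fell (422 to 477 against 461 to 498 CPM). Of 12 GABAergic interneuron markers 3 fell and 0 rose (443 to 464.5 against 387 to 424.5 CPM), with 2 falls and 0 rises with library totals. Of 6 cholinergic interneuron markers 4 fell and 0 rose (222.6 to 252.6 against 210.4 to 233.5 CPM), with 3 falls and 1 rise with library totals. None of the markers was at 0 in all 16 libraries. Their part in the falls of matrix, complement and interferon genes was not tested.

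Ifi27l2b, an interferon-inducible gene of low level, was nearly lost. It was at 0.326 to 1.43 CPM in WT mice (median 0.942) and 0 to 0.112 CPM in Q140 mice (median 0), with counts in all 8 WT and 3 of 8 Q140 mice. Pooled counts were 332 and 11, a 30.5-fold ratio (16.9 to 61.8), and 58.4-fold without Q140 replicate M2, which held 6 of the 11 counts. Its paralog Ifi27l2a fell by 1.48 (SE 0.327), and reads of such close copies can be split by the counting. Gm2420, a gene model on chromosome 5 (32720330 to 32736194) that begins 2.04 Mb before Htt, did the reverse, with 14 counts in WT and 366 in Q140 mice (25.8-fold, 15.2 to 47.7). Of 76 tested genes within 2.5 Mb of Htt 13 rose and 19 fell, and Gm2420 was the 1 called gene there that changed at least 2-fold. From 2.5 to 5 Mb away 21 of 73 genes rose and 8 fell, and from 5 to 10 Mb 9 of 60 rose and 6 fell. Over all genes tested 17% rose and 16% fell, and a difference of this region from other genes was not tested.

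Nuclear transport and proteasome genes were called higher more often than lower. Of 58 nuclear pore and nuclear transport genes 29 rose and 3 fell (44 and 1 with library totals), with a relative median of 0.092. Xpot, the tRNA exporter, was at 79.3 to 83 CPM in WT mice (median 80.7) and 87.1 to 102 CPM in Q140 mice (median 96.4), a rise of 0.26 (SE 0.0286) without overlap. Ndc1, which anchors the pore in the nuclear membrane, rose by 0.26 (SE 0.0516), while Nup35 fell by 0.57 (SE 0.0793). Of 42 proteasome genes 15 rose and 0 fell (33 and 0 with library totals). The largest rises were in Psmb10, an immunoproteasome subunit, by 0.48 (SE 0.0715) from a median of 6.97 to 9.27 CPM, and in Psme1, a proteasome activator, by 0.41 (SE 0.0512) from a median of 17.3 to 23.5 CPM. Psmd1 and Psmd6, constitutive subunits of the regulatory particle, rose by 0.17 (SE 0.041) and 0.17 (SE 0.0355).

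The vacuolar ATPase acidifies lysosomes and synaptic vesicles. Of its 19 tested subunits 12 rose and 2 fell (16 and 1 with library totals), with a relative median of 0.103. Atp6v1a, the catalytic subunit, was at 224 to 261 CPM in WT mice (median 245) and 279 to 332 CPM in Q140 mice (median 311), a rise of 0.34 (SE 0.0348) without overlap. Atp6v1c2, an isoform of low level, went the other way and fell by 1.61 (SE 0.157), from a median of 4.03 to 1.37 CPM. Lysosome genes rose in 16 of 56 cases and fell in 6 (22 and 3 with library totals), with Ids, the iduronate sulfatase, higher by 0.31 (SE 0.0284). Autophagy ATG genes and relatives rose in 9 of 31 cases and fell in 3 (16 and 0 with library totals), among them Ulk1, the initiating kinase (0.21, SE 0.033). Heat shock and J-domain genes rose in 24 of 85 cases and fell in 9 (41 and 5 with library totals). Hspa8, the constitutive HSC70 chaperone, was at 397 to 453 CPM in WT mice (median 426) and 482 to 595 CPM in Q140 mice (median 537), a rise of 0.34 (SE 0.0593), and the cochaperone Bag2 rose by 0.67 (SE 0.0889).

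Huntingtin takes part in transport along microtubules through its associated proteins. Of 48 dynein, dynactin and huntingtin-associated transport genes 20 rose and 4 fell (31 and 3 with library totals), with a relative median of 0.068. F8a, which encodes the huntingtin partner HAP40, rose by 0.27 (SE 0.0693), and Dync1i1, a dynein intermediate chain, rose by 0.21 (SE 0.0402), while the motor gene Kif5c fell by 0.27 (SE 0.0352). Tubulins and microtubule-associated genes were called in both directions, 13 higher and 8 lower of 42 (19 and 4 with library totals). Stmn2, a tubulin-binding protein of growing neurites, was at 62.6 to 78.9 CPM in WT mice (median 68.7) and 106 to 134 CPM in Q140 mice (median 124), a rise of 0.80 (SE 0.0558) without overlap. Dcx, doublecortin of young neurons, rose by 0.51 (SE 0.0847) and Tubb2a by 0.43 (SE 0.0456).

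Vesicle release genes split by member. Among 61 synaptotagmin and SNARE-related genes 23 rose and 11 fell (28 and 11 with library totals). Unc13b, a vesicle priming factor, rose by 0.43 (SE 0.0629) and synapsin Syn1 by 0.27 (SE 0.0488), while the synaptotagmins Syt10 and Syt9 fell by 0.82 (SE 0.098) and 0.81 (SE 0.0755). Of 61 translation initiation and elongation factors 17 rose and 1 fell (36 and 0 with library totals). Of 39 pyruvate dehydrogenase and TCA cycle genes 14 rose and 4 fell (25 and 3 with library totals). Idh3a, a subunit of isocitrate dehydrogenase, was at 124 to 141 CPM in WT mice (median 134) and 145 to 171 CPM in Q140 mice (median 162), a rise of 0.27 (SE 0.0341) without overlap. Pdk1, a kinase that inhibits pyruvate dehydrogenase, rose by 0.31 (SE 0.0408), and Pdp1, its activating phosphatase, fell by 0.48 (SE 0.0795). The 13 mRNAs encoded in mitochondria had 0 rises and 4 falls (0 and 1 with library totals), and mitochondrial counts were 5.79% to 7.65% of WT and 5.99% to 7.43% of Q140 libraries.

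**Figure D3:**
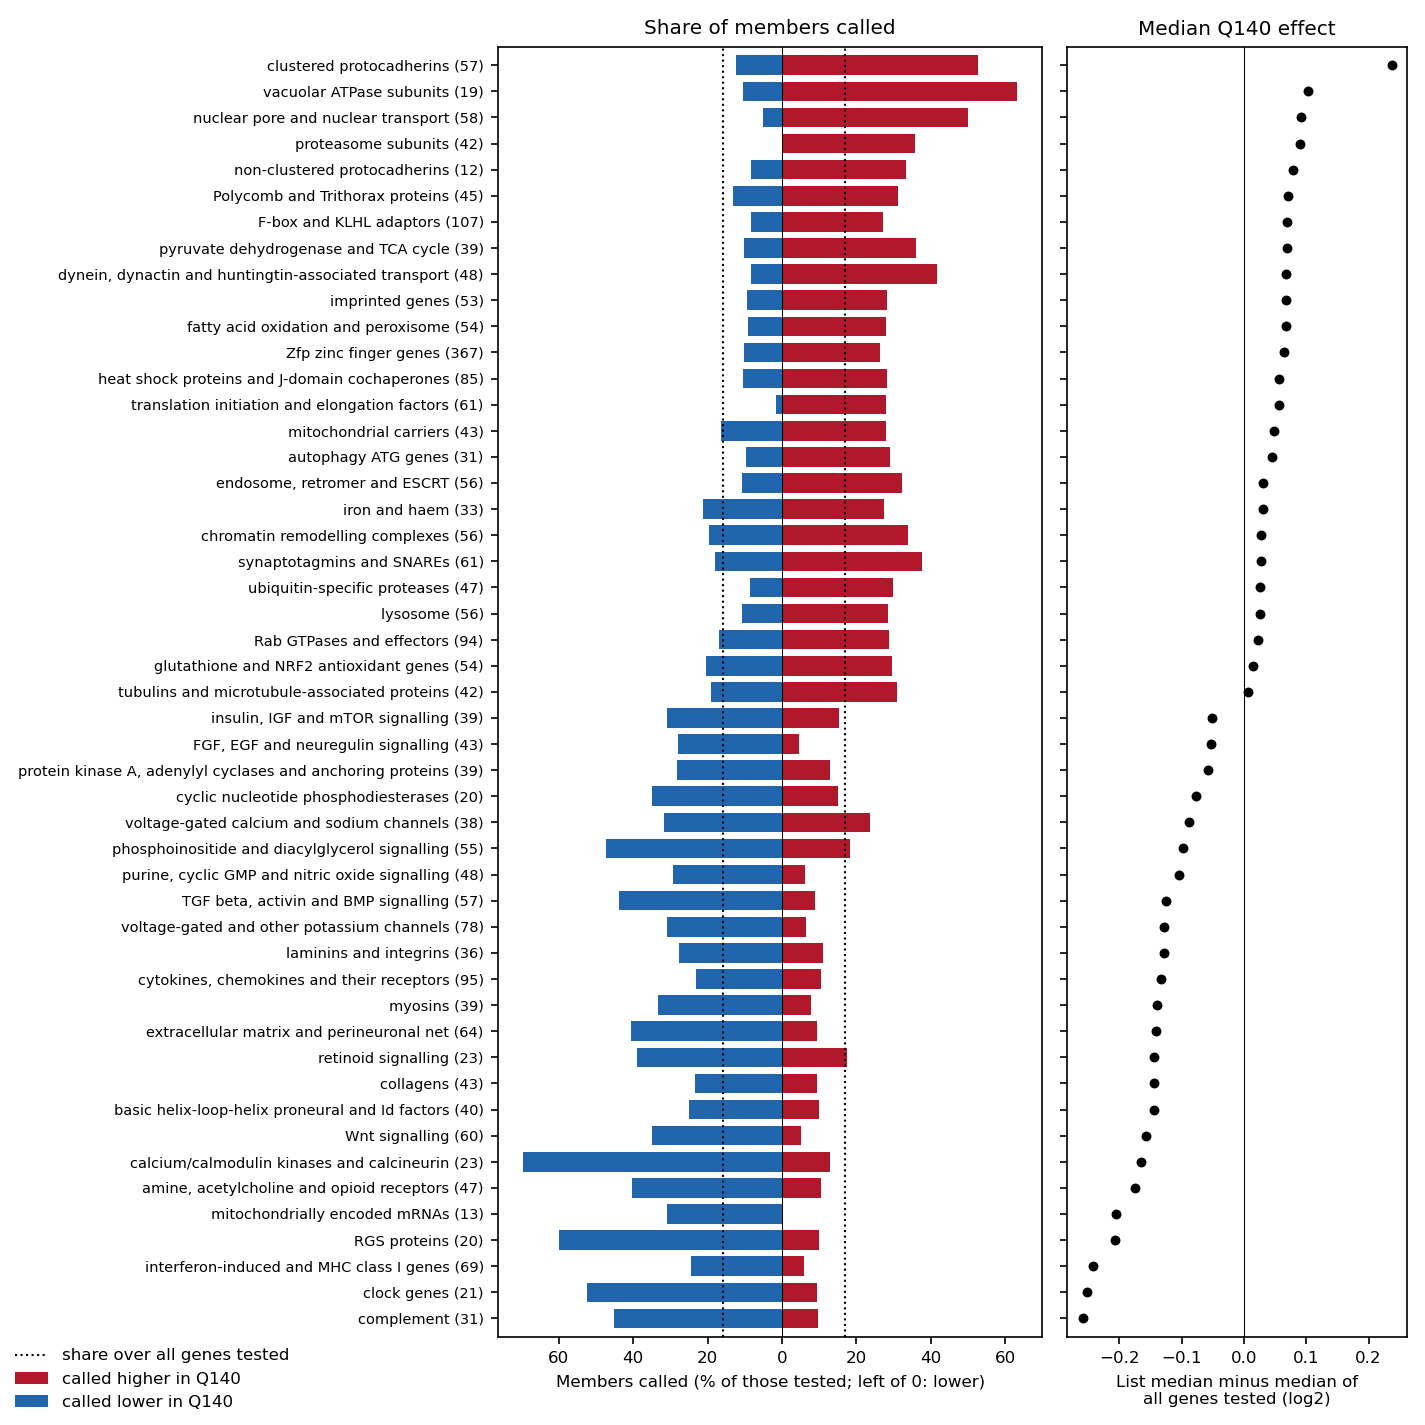
Share of tested members (number in brackets) called higher (red, right) or lower (blue, left) in Q140, for described lists whose majority direction did not reverse with library totals, with dotted lines at the shares of all genes tested (17% higher, 16% lower). The right panel gives each list's median log2 fold change minus that of all genes, from -0.259 for complement to 0.237 for clustered protocadherins.

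Clustered protocadherins, adhesion genes of which each neuron expresses a combination, had the highest relative median (0.237), with 30 of 57 higher and 7 lower (35 and 5 with library totals). Pcdhb3 was at 3.54 to 5.54 CPM in WT mice (median 4.49) and 7.42 to 9.90 CPM in Q140 mice (median 8.91), without overlap. These close copies share sequence or exons, so the division of reads among them is uncertain. Outside the clusters, the X-linked protocadherins Pcdh19 and Pcdh11x rose by 0.85 (SE 0.0989) and 0.45 (SE 0.0634). Zfp zinc finger genes, many of which encode KRAB repressors, rose in 96 of 367 cases and fell in 37 (165 and 18 with library totals). Among imprinted genes, which are expressed from a single parental allele, 15 of 53 rose and 5 fell (22 and 4 with library totals). Rian, a noncoding RNA of the Dlk1-Dio3 region, rose by 0.29 (SE 0.0328), while Peg10 fell by 0.73 (SE 0.126).

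Genes of the X chromosome were called higher in a larger share than those of any autosome. Of 690 tested, 28.7% rose and 10.6% fell, and the median change was 0.07. With library totals the X shares were 41.3% and 5.94%. When each genotype had its own female and male term, 22.3% of X genes rose and 6.09% fell in females, beside 11.4% and 11% of all genes. In males 15.8% of X genes rose and 5.22% fell, beside 7.48% and 8.33% of all genes. A neighbourhood of X-linked genes named Armcx, Gprasp, Bex or Tceal and their close relatives was looked at after its values were seen, and 12 of 19 rose and 0 fell. Gprasp2, a sorting protein gene for G protein-coupled receptors, was at 86.3 to 98.2 CPM in WT mice (median 95.9) and 133 to 159.7 CPM in Q140 mice (median 148). Armcx4 was at 50.7 to 56.3 CPM in WT mice (median 53.4) and 67.1 to 76.5 CPM in Q140 mice (median 72.6). Neither overlapped between genotypes. Armcx5 and Gprasp1 share a start, so reads counted for them may not be separate.

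**Figure D4:**
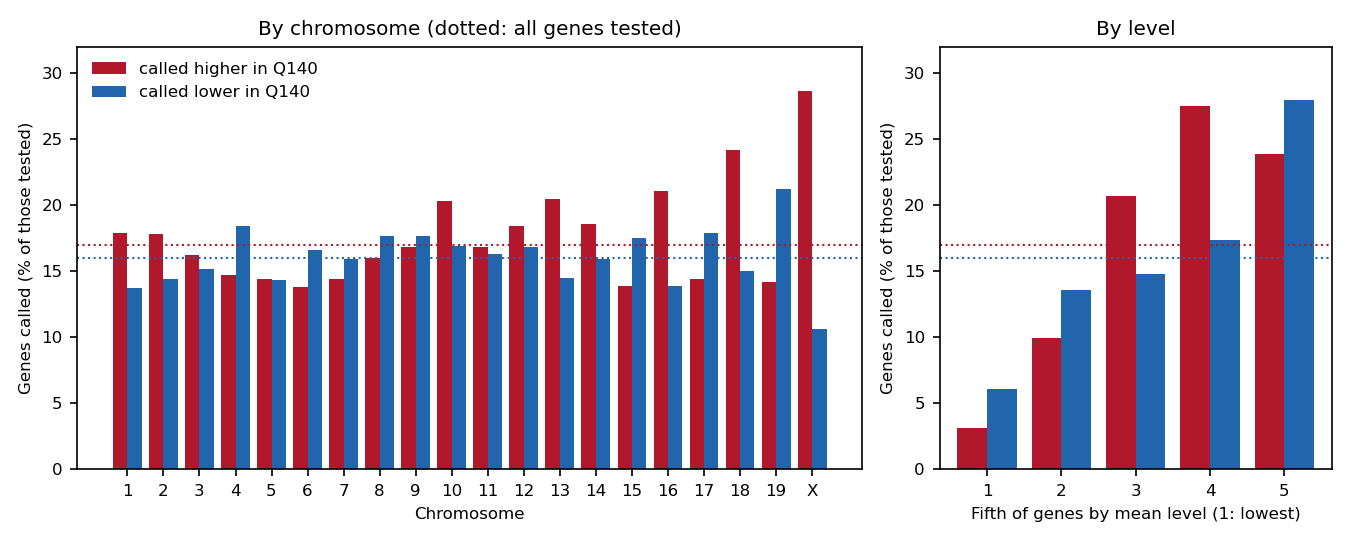
Share of tested genes called higher (red) or lower (blue) in Q140, in percent, by chromosome (left) and by 5 equal classes of mean level (right), with dotted lines at the shares over all genes. Chromosome X has the highest share of rises (28.7%), and genes in the lowest class are called least often (3.09% higher, 6.04% lower).

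Calls depended on how well a gene was measured. In the lowest of 5 equal classes by mean level 3.09% rose and 6.04% fell, and in the highest class 23.9% rose and 28% fell. With library totals these shares were 4.57% and 5.1% in the lowest class and 44% and 18.6% in the highest, so the split between rises and falls there depended on the scaling. By exonic length the shares went from 7.4% and 9.13% in the shortest of 5 classes to 23.1% and 20.9% in the longest (14.2% and 6.31% against 39.6% and 13.3% with library totals). Antisense genes were called higher in 4.92% and lower in 11.8% of 712 cases, and long intergenic RNAs in 6.38% and 11.1% of 721. The strand setting of the counting is not given in the sources used here, so reads of a gene and its antisense partner may not be told apart.

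Females and males were tested for a different Q140 effect. No gene passed, 0 of 19714 (0%) in edgeR and 0 in DESeq2, with 658 and 662 genes at an unadjusted p below 0.05. Of the 6506 genes called over both sexes 6501 had the same sign in each sex, but the same libraries made the calls. In the fit by genotype and sex, 4409 genes were called in females and 3117 in males. Of these, 2438 were called in both with the same sign and 0 with opposite signs. Nrn1 had log2 fold changes of 2.41 in females and 0.69 in males (adjusted p of the difference = 1 in edgeR).

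The series also holds the Q140 allele on another background, as Q140 x Msh3+/- against Msh3+/- mice, 8 each, with no library shared with the comparison above. There 4247 genes were called (21.5%). Both comparisons called 3394 genes with the same sign, which is 52.2% of the calls of Q140 minus WT and 79.9% of those on the Msh3+/- background, and 2 genes with opposite signs. The median change was 0.128 there for genes called higher in Q140 minus WT (0.198) and -0.181 for genes called lower (-0.287). Those genes were chosen by their values in Q140 minus WT, which favours larger values in that comparison.

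Single genes recurred to different degrees. Wt1 was at 0 to 0.201 CPM in Msh3+/- mice (median 0) and 0.591 to 2.47 CPM in Q140 x Msh3+/- mice (median 1.33), without overlap. Onecut1 was at 0 to 0.125 CPM in Msh3+/- mice (median 0.0308) and 0.245 to 1.40 CPM in Q140 x Msh3+/- mice (median 0.853), also without overlap. Their log2 fold changes there were 4.79 and 4.48. Shox2 was at 0 to 0.146 CPM in Msh3+/- mice (median 0.0436) and 0.136 to 0.441 CPM in Q140 x Msh3+/- mice (median 0.236), with overlap and a change of 2.48. Hoxc4 had 0 counts in Msh3+/- and 19 in Q140 x Msh3+/- mice, and the Hoxc cluster 3 and 37. Gm2420 was at 0 to 0.0213 CPM in Msh3+/- mice (median 0) and 0.544 to 1.24 CPM in Q140 x Msh3+/- mice (median 0.911). Nrn1 did not pass there (-0.33, adjusted p = 0.7). Whether single genes' Q140 effects differ between the backgrounds was not tested here.

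**Figure D5:**
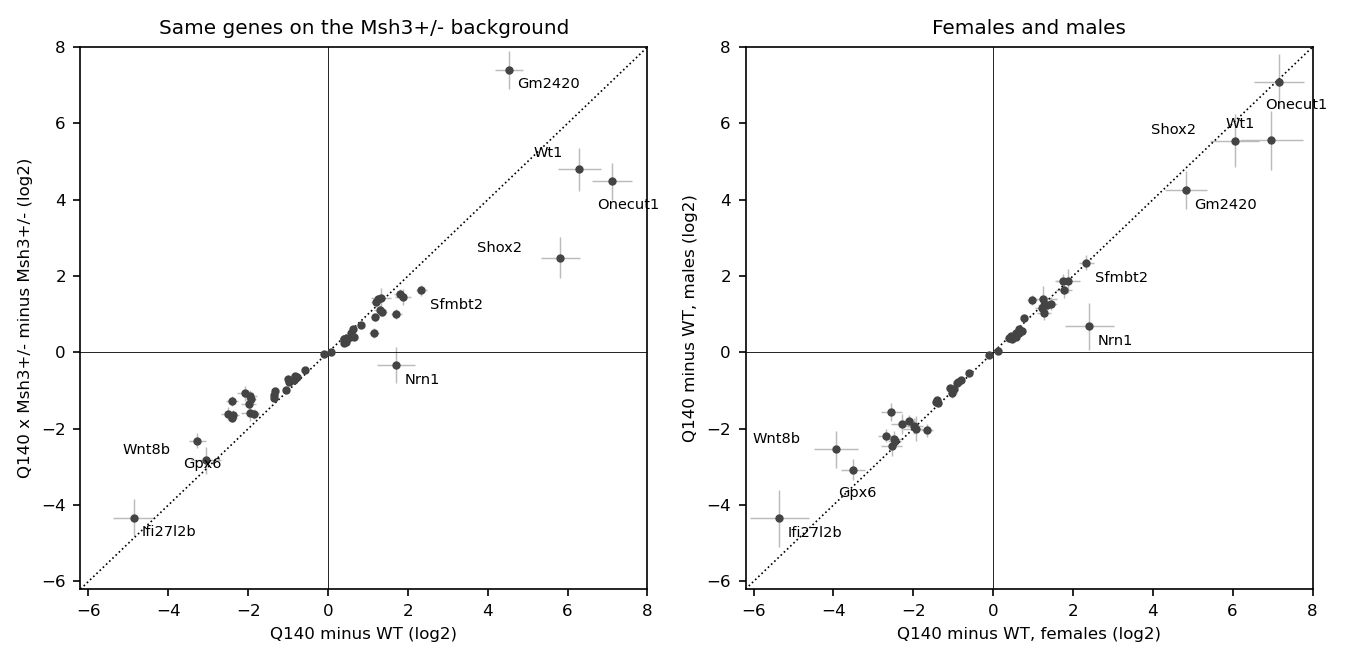
Log2 fold changes with SE of the genes named outside the lists, Q140 minus WT against Q140 x Msh3+/- minus Msh3+/- (left), and Q140 minus WT in females against males (right), with a dotted line of equality. Onecut1, Wt1 and Shox2 lie below the line on the left (4.48, 4.79 and 2.48 on the y axis), and Nrn1 lies below it in both panels.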

How the data were processed

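RNA-seq of 48 mouse striata was used, 8 mice in each of 6 genotypes, of which 8 Q140 and 8 WT mice were compared. Libraries were Illumina TruSeq stranded, per the labels' protocols. The authors deposited raw read counts per gene and FPKM values. Per the submitters' processing notes, the tools were HTSeq 0.12.3, STAR 2.7.5c and SAMtools 1.10 on GRCm38/mm10. Strand setting and annotation: not given in the sources used here. FPKM values as deposited were each gene's count times a constant over the library total, and served here only to recover exonic length. Gene IDs were matched to GENCODE M21 for coordinates (48435 of 48795 matched).

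Counts were tested with edgeR 4.0.16 (R 4.3.3, limma 3.58.1) by the quasi-likelihood test with TMM factors and filterByExpr by genotype, which left out 29081 genes. The model had genotype and sex over all 48 libraries (41 residual degrees of freedom), with Benjamini-Hochberg adjustment over 19714 genes. The other genotypes add to the estimate of the spread. DESeq2 1.42.0, voom, other scalings and leaving out each library were alternatives. On simulated counts of 19714 genes, 64 of 100 genes changed by 0.25 (log2) and 90 of 100 changed by 0.5 were called. There were 10 false calls among the unchanged genes. Changed genes were drawn only from those above 1 in mean log2 CPM, and far fewer were changed than the 6506 called in the data. The shares recovered therefore need not hold for all genes tested.

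Mice of equal replicate number were not treated as pairs, because the labels do not pair them. Residual correlations between WT and Q140 mice of equal number were -0.183 to -0.005, which cannot exclude a shared litter or day. Some sample names share a stem across genotypes, such as Mh3Q19_1 (WT F1) and Mh3Q19_3 (Q140 F1), and its meaning is not given. The labels title each library as a separate sample per sex and number and say nothing of litters. P-values measure the spread between these samples. RefSeq promoters (300 bases) matched 12477 of 19714 tested genes (63.3%), below the share needed for a comparison of promoter content between called and uncalled genes, so the planned motif comparison was not made.

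Genes are named by these rules: Htt and Msh3, the 12 largest rises and falls at 1 or more in mean log2 CPM, and the 6 largest each way at 8 or more. Also named are the 6 smallest p each way, genes with at most 24 pooled counts in 1 genotype and at least 240 in the other, and up to 4 called members each way of each list described. The genes of the Hox and Armcx neighbourhoods and Lmx1b were named after their values were seen. The comparison, members and lists were chosen with earlier results of these data known. Some genes that meet these rules are not reported here.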

Additional observations from a re-analysis of the deposited data

Results flagged for a closer look

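In 10 of 110 groups of 8 mice a single mouse stood apart by Dixon's test, against about 5.5 for independent groups of normally distributed values. The groups here come from the same mice and some values lie near 0, so 5.5 is not a chance level for them. Q140 replicate F3 was the highest mouse in 4 of them. Its Hoxc4 level was 2.62 CPM (next 0.914), its Nrn1 level 10.8 CPM (next 5.6), its Rprm level 14 CPM (next 11.5) and its Sfmbt2 level 19.3 CPM (next 14.5). In WT, replicate F3 had the highest Hoxc4 level at 0.122 CPM (next 0.0235) and the highest Onecut1 level at 0.0612 CPM (next 0.0247).

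Q140 replicate M2 was the lowest mouse for 3 abundant genes that rose in Q140, with Ahi1 at 246 CPM (next 315), Nell2 at 311 CPM (next 356) and Stum at 240 CPM (next 289). WT replicate M2 was the lowest WT mouse for Faim2, at 252 CPM (next 281).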

How the results depend on the processing

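The count of 6506 genes stayed within 1.5 times under most settings: 7837 with library totals, 6498 with RLE factors, 6632 with DESeq2, 6596 with voom, 5984 without the filter on low counts, 6471 with the 16 libraries alone, 6330 without the sex term and 6155 with plate column as a term. Leaving out single libraries gave 6038 to 6575. It moved to 3925 in females alone and 3144 in males alone, where each group has 4 mice. With the name prefix as a term, a setting chosen after seeing the data, 5374 genes were called. Replicate numbers were not used as pairs in the main fit. With the replicate block 6526 genes were called in Q140 minus WT and 4256 on the Msh3+/- background. On that background DESeq2 called 4354 genes and library totals gave 5858, 4507 higher and 1351 lower. The sex difference stayed at 0 calls with library totals, with DESeq2 and over autosomes alone.

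Over 538 named genes and their settings, 15268 of 16134 values kept direction and side of the threshold, 864 no longer passed, 2 newly passed and 0 reversed. For 334 genes no setting ended the call. Among genes described above, F8a and Ifi27l2a were not called in females alone, and Nrn1, Ndc1, Psmd1 and Psmd6 not in males alone.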
